A study of Mus musculus with 20 samples.

Results

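The proteasome degrades ubiquitin-tagged proteins. Its 20S barrel is built from alpha and beta subunits, and the 19S cap of ATPases (Psmc genes) and non-ATPases (Psmd genes) recognises, unfolds and feeds in the substrate. Interferon-gamma signaling replaces the catalytic beta subunits Psmb6, Psmb7 and Psmb5 with Psmb9, Psmb10 and Psmb8, which gives the immunoproteasome of antigen-presenting and other immune cells, and raises the PA28 activator formed by Psme1 and Psme2, which opens the barrel. The proteasome genes were chosen as all gene names on the array that begin with Psm, then a letter from a to g and a digit. They were 49 of 31093 named genes, each measured by its brightest probe. Of these, 48 passed the background filter, which 18739 genes passed in all.

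The blood came from WT (C57BL/6) and Il10-/- (B6.129P2-Il10tm1Cgn/J) male littermates aged 8 to 10 weeks, bred from heterozygous parents. Mice received whole-body X-rays at 7 Gy or a sham exposure (0 Gy), and blood drawn by cardiac puncture after 24 h was depleted of globin transcripts. There were 4 groups (WT 0 Gy, WT 7 Gy, Il10-/- 0 Gy and Il10-/- 7 Gy) of 5 arrays, each hybridised with the RNA of 1 sample in a single colour. The knockout was germline, so every tissue of the Il10-/- mice lacked the cytokine by design. The Il10 probe was well above background on 5 of 5 arrays in both groups labelled Il10-/- and on 0 of 5 in both groups labelled WT. Its position relative to the targeted part of the gene is not given in the sources used here, so it checks nothing about the labels, and genotypes are given as labelled.

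Levels are log2 intensities relative to the median probe of the same array. Changes in level are log2 differences between group means with the standard error (SE) of limma's fit. For a difference taken within each array, the SE comes instead from the SD of the 5 arrays in each group, without limma. A call of a change required both an unadjusted p under 0.001 and a false discovery rate (Benjamini-Hochberg, over all 18739 genes) under 10%. All comparisons that involve WT 0 Gy share its 5 arrays. The share of spots well above background was 29.9% on WT 0 Gy replicate 5 and 34.6% to 57.8% on the other 19 arrays. Replicates 1 and 2 were the most alike in each group, with a robust SD of their log2 differences of 0.17 to 0.26, against 0.29 to 1.29 for other pairs. These pairs differed by 1.41 to 1.92 times the spread of repeated spots on the same arrays, which holds no labelling or hybridisation noise, so this ratio does not tell whether a pair is 1 RNA or 2. They were kept as separate samples as the labels give them, and the call that changes when they are averaged is given with both values. The methods describe blood drawn mouse by mouse and 5 labelled samples a group, and the labels do not name the animal behind an array.

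Among blood cell markers, the mean level of 9 transcripts of mature neutrophils was 5.27 to 9.15 over all 20 arrays. The mean level of 9 hepatocyte transcripts ranged from 0.29 to 2.34 in WT 0 Gy, 3.26 to 12.18 in WT 7 Gy, 2.66 to 10.37 in Il10-/- 0 Gy and 1.61 to 10.40 in Il10-/- 7 Gy. The mean of 6 heart muscle transcripts ranged from 0.45 to 3.33 in WT 0 Gy and 1.15 to 8.43 in WT 7 Gy. It ranged from 0.43 to 4.10 in Il10-/- 0 Gy and 2.50 to 8.20 in Il10-/- 7 Gy. Replicates 1 and 2 were close in these lists also where the other replicates were not, with hepatocyte means of 12.18 on both in WT 7 Gy and of 10.37 and 10.40 in Il10-/- 7 Gy. In bulk blood, fewer cells of a type and less RNA per cell cannot be told apart.

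The 60-base probes below are those of the inducible genes, of the copy that stands in for Psme2, and of the activator and the inhibitor with the lowest values after irradiation. They are shown because the values of these genes rest on them. The sequences were not aligned here, so they do not settle which transcript is read. Capitals mark runs of at least 6 bases in which T and G alternate, in the probe as printed 5′ to 3′.
Psmb8: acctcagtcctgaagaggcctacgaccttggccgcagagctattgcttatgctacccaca
Psmb9: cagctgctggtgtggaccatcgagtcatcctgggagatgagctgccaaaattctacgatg
Psmb10: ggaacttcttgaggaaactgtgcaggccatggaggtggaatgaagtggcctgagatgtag
Psme1: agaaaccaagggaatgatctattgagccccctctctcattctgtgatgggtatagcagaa
Psme2b: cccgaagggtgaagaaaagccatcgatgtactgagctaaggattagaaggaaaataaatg
Psme3: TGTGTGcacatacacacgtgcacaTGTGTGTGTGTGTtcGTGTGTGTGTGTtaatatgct
Psmf1: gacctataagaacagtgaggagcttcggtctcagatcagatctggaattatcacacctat

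The array files place these probes, in build mm9, at chr17:34337771-34337830 (Psmb8, plus strand), chr17:34319174-34319233 (Psmb9, minus), chr8:108459677-108459736 (Psmb10, minus), chr14:56200194-56200253 (Psme1, plus), chr11:48758875-48758934 (Psme2b, minus), chr11:101184289-101184348 (Psme3, plus) and chr2:151555353-151555412 (Psmf1, minus). Psmb8 and Psmb9 lie close together on chromosome 17. An exon annotation of that build was not used here. No probe was named Psme2. Psme2b, a near-identical copy of Psme2 on chromosome 11, was measured by 3 probes, and whether they read the transcript of Psme2, of the copy or of both is not known. It is therefore given beside the inducible genes Psmb8, Psmb9, Psmb10 and Psme1, and not among them. The remaining 34 tested genes of the barrel and the cap are called the other core subunits, and they include Psmd5, Psmd9 and Psmd10, which are chaperones of cap assembly. The array files place the chosen probes of Psma4 and Psma5 on another chromosome than RefSeq gives for the gene, so these values are uncertain. For 9 genes (Psmb1, Psmb2, Psmb4, Psmb7, Psmc4, Psmc5, Psmd8, Psmd10 and Psmd11) they give the chosen probe no position, so its place was not checked.

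**Figure D1:**
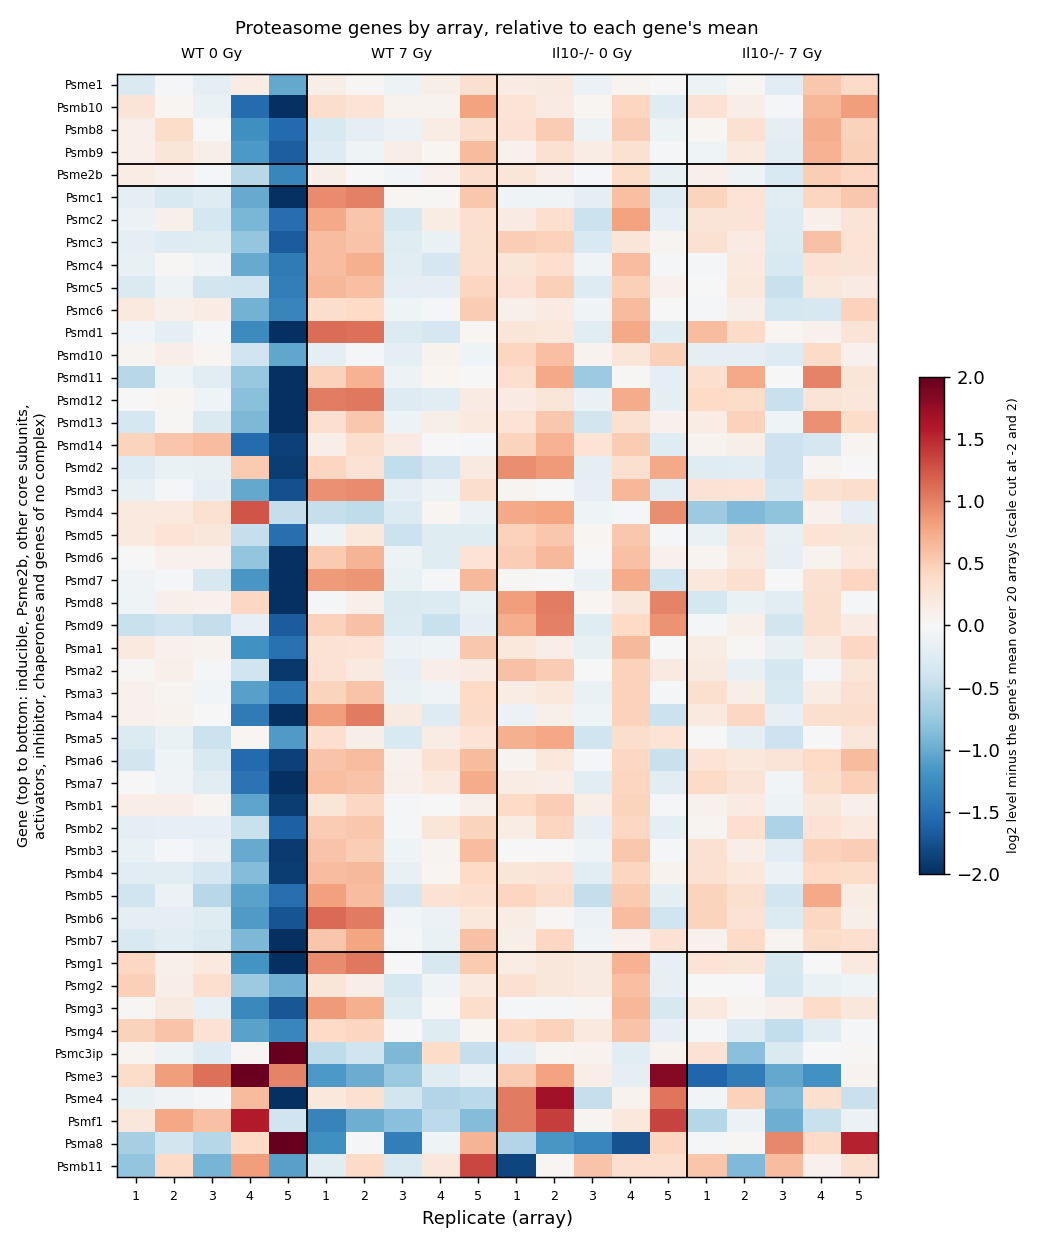
Level of each of the 49 proteasome genes (rows) on each of the 20 arrays (columns), as the log2 level minus the gene's mean over all arrays, with red above and blue below it. WT 0 Gy replicates 4 and 5 are blue for most core subunits, WT 7 Gy replicates 1 and 2 are red, and Psme3 and Psmf1 are mostly red at 0 Gy and mostly blue at 7 Gy in both genotypes.

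The immunoproteasome genes were not called in any comparison, by genotype or by dose. After 7 Gy, their differences in WT mice were 0.43 for Psmb8 (SE 0.42), 0.56 for Psmb9 (SE 0.42), 1.14 for Psmb10 (SE 0.52) and 0.38 for Psme1 (SE 0.34). In Il10-/- mice they were 0.05 (SE 0.23), 0.05 (SE 0.21), 0.25 (SE 0.22) and 0.07 (SE 0.20) in the same order. Without WT 0 Gy replicate 5 the WT differences were 0.16, 0.26, 0.66 and 0.19. Limma's adjusted p lay between 0.182 and 0.569 in WT mice and between 0.479 and 0.900 in Il10-/- mice. The 95% intervals of these differences ended at 0.50 to 0.73 in Il10-/- mice and at 1.09 to 2.24 in WT mice.

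Psmb8 is the inducible chymotrypsin-like subunit. Its levels were 6.88, 7.16, 6.80, 5.56 and 5.22 in WT 0 Gy (replicates 1 to 5) and 6.48, 6.59, 6.67, 6.92 and 7.13 in WT 7 Gy. They were 7.07, 7.29, 6.68, 7.27 and 6.68 in Il10-/- 0 Gy and 6.82, 7.09, 6.59, 7.51 and 7.24 in Il10-/- 7 Gy. Replicates 4 and 5 of WT 0 Gy lay below every other array, and the remaining 18 arrays overlapped across all groups. Psmb9, a neighbour of Tap1 in the class II region of the MHC, read 6.44, 6.58, 6.45, 5.20 and 4.69 in WT 0 Gy and 6.08, 6.25, 6.48, 6.38 and 6.97 in WT 7 Gy. Psmb9 in Il10-/- mice stood at 6.43, 6.65, 6.49, 6.65 and 6.32 before and 6.25, 6.54, 6.13, 7.03 and 6.81 after irradiation. The same 2 arrays were lowest.

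Psmb10, the inducible trypsin-like subunit, had the widest spread of the inducible genes. In WT mice it was at 7.86, 7.64, 7.48, 6.06 and 4.87 with 0 Gy and at 7.95, 7.88, 7.67, 7.67 and 8.41 with 7 Gy. Its Il10-/- levels were 7.87, 7.77, 7.64, 8.04 and 7.36 with 0 Gy and 7.90, 7.74, 7.56, 8.26 and 8.44 with 7 Gy. The WT difference within each of the 5 slides, which held 1 array of each group, ran from 0.09 to 3.54 with a median of 0.25.

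Psme1, a subunit of the PA28 ring, was the steadiest. Its levels were 7.18, 7.44, 7.28, 7.61 and 6.45 in WT 0 Gy and 7.59, 7.50, 7.38, 7.59 and 7.80 in WT 7 Gy. Its Il10-/- levels read 7.64, 7.65, 7.36, 7.53 and 7.46 with 0 Gy and 7.37, 7.49, 7.25, 8.01 and 7.85 with 7 Gy. No group was separated from another. Psme2b, by its brightest probe, averaged 8.17 ± 0.61 (SD, n = 5) in WT 0 Gy, 8.61 ± 0.16 in WT 7 Gy, 8.62 ± 0.21 in Il10-/- 0 Gy and 8.63 ± 0.33 in Il10-/- 7 Gy, and was not called either. Its dimmer probes differed by 0.55 (SE 0.41) and -0.46 (SE 0.38) in WT mice after 7 Gy, against 0.44 (SE 0.36) for the brightest. In Il10-/- mice they differed by -0.03 (SE 0.21) and -0.26 (SE 0.27), against 0.01 (SE 0.21).

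The constitutive counterparts showed larger WT differences than Psmb8 and Psmb9, and likewise none was called. Psmb5 differed by 1.08 (SE 0.38, limma adjusted p = 0.0782), with levels of 7.95, 8.23, 7.79, 7.28 and 6.83 in WT 0 Gy and 9.17, 8.97, 8.01, 8.63 and 8.69 in WT 7 Gy. Psmb6 differed by 1.14 (SE 0.42, limma adjusted p = 0.0972), with 6.99, 6.98, 6.93, 6.04 and 5.45 against 8.31, 8.21, 7.11, 7.06 and 7.38. Psmb7 differed by 1.12 (SE 0.42, limma adjusted p = 0.0962), with 4.53, 4.61, 4.55, 3.94 and 2.72 against 5.39, 5.63, 4.81, 4.71 and 5.43. For Psmb6 and Psmb7 all 5 irradiated WT arrays were above all 5 sham arrays. The same 3 genes averaged in Il10-/- mice 8.47, 7.23 and 5.01 with 0 Gy and 8.60, 7.37 and 5.09 with 7 Gy.

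**Figure D2:**
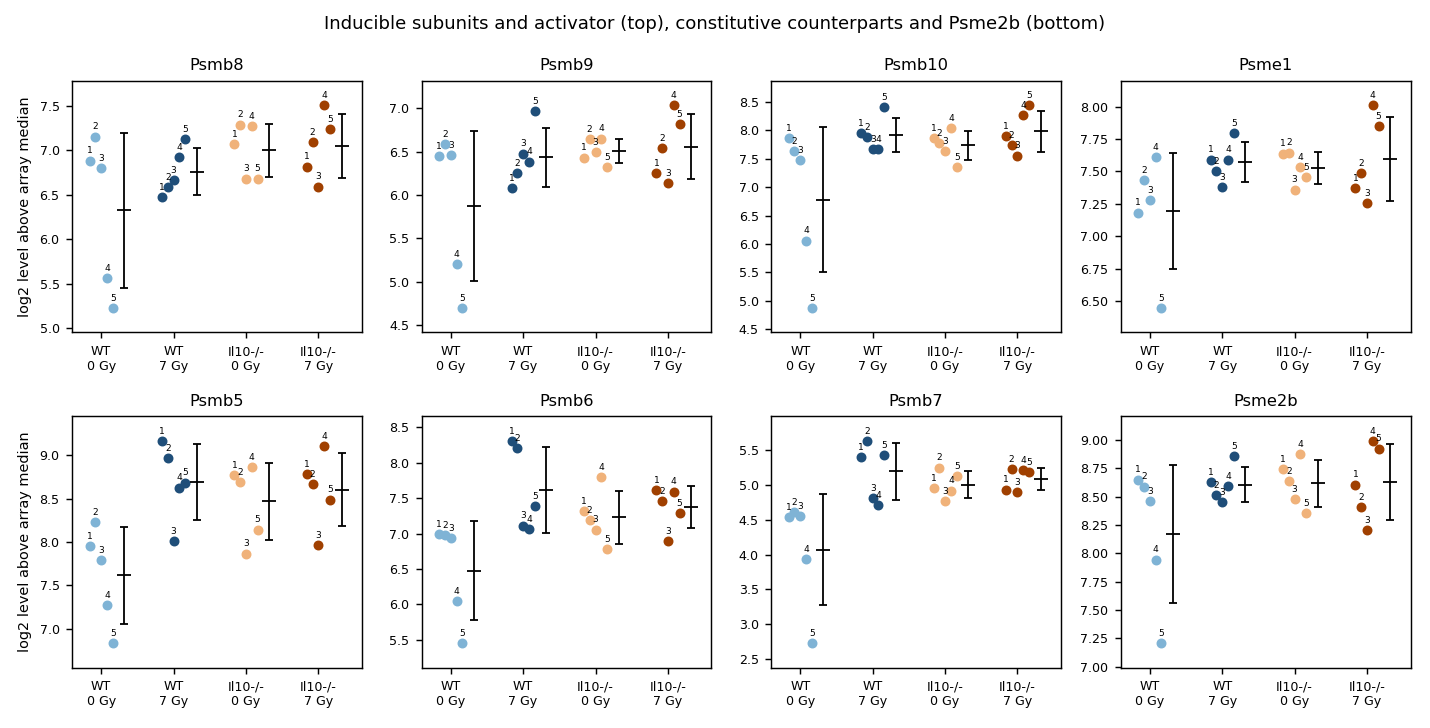
Level (log2 above the array median, vertical axes cut to each gene's range) of the inducible genes Psmb8, Psmb9, Psmb10 and Psme1, their constitutive counterparts Psmb5, Psmb6 and Psmb7, and Psme2b, with 1 point per array numbered by replicate, and the mean ± SD of 5 arrays as a bar. WT 0 Gy replicates 4 and 5 are lowest for most genes. Within their group, WT 7 Gy replicates 1 and 2 are highest for Psmb5 and Psmb6 and lowest for Psmb8 and Psmb9.

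Whether the inducible genes moved apart from the rest was read within each array, where the scaling of the array cancels. The mean of the 4 inducible genes minus the mean of the other core subunits was 1.67, 1.70, 1.60, 1.34 and 1.58 in WT 0 Gy and 0.99, 0.98, 1.67, 1.67 and 1.78 in WT 7 Gy. It was 1.42, 1.41, 1.67, 1.39 and 1.39 in Il10-/- 0 Gy and 1.43, 1.53, 1.60, 1.90 and 1.80 in Il10-/- 7 Gy. The groups overlapped in all pairs compared: the difference between group means was -0.16 (SE 0.19) for the WT response to 7 Gy, 0.19 (SE 0.10) for the Il10-/- response, -0.12 (SE 0.08) for Il10-/- minus WT at 0 Gy and 0.23 (SE 0.20) at 7 Gy. The WT response ran from -0.25 to -0.05 when 1 array was left out, being closest to 0 without WT 7 Gy replicate 1 or 2. With Psme2b included the differences were -0.20 (SE 0.18), 0.18 (SE 0.10), -0.16 (SE 0.07) and 0.21 (SE 0.19), also with overlapping groups. No comparison separated the groups.

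WT 7 Gy replicates 1 and 2 stood apart from the other 3 arrays of their group in this measure. On both, Psmb8 minus Psmb5 was lowest, at -2.69 and -2.38 against -1.71 to -1.34 on the other 3. Their mean of the other core subunits was 6.03 and 6.07 against 5.38 to 5.80, and their mean level of the 9 hepatocyte transcripts was 12.18 on both arrays, the highest of all 20, against 3.26 to 9.39 on the other 3. The part of the hepatocyte transcripts in these levels was not tested.

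**Figure D3:**
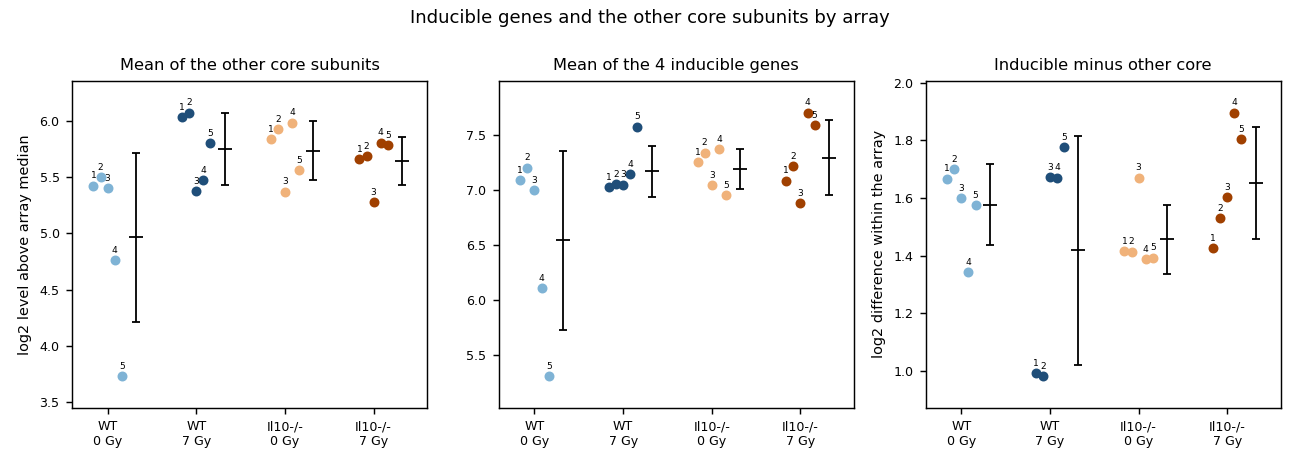
Mean log2 level of the 34 other core subunits (left), of the 4 inducible genes (middle), and the within-array difference between them (right), with 1 point per array numbered by replicate, and the mean ± SD of 5 arrays as a bar. The within-array difference lies between 0.98 and 1.90 on all 20 arrays and the 4 groups overlap, while WT 0 Gy replicates 4 and 5 are low in both means.

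The other core subunits of the barrel and the cap differed together in WT mice without passing the test one by one. After 7 Gy, 33 of 34 were above 0, with a median of 0.86, against 52.2% and a median of 0.04 over all genes tested. None was called, where 5.94% of all genes were, and 17 of 34 had an unadjusted p below 0.05, as had 25.7% of all genes. The largest values were those of the ATPase Psmc1 (1.32, SE 0.45, limma adjusted p = 0.0682), the alpha subunits Psma6 (1.28, SE 0.41, limma adjusted p = 0.0528) and Psma7 (1.22, SE 0.44) and the cap subunit Psmd7 (1.18, SE 0.44). The groups did not overlap for Psma6, Psma7, Psmb2, Psmb4, Psmb6, Psmb7 and Psmc1, which are 7 of 48 tested members, against 10.5% of all genes. By role, the medians were 0.73 for the 7 alpha subunits, 0.92 for the 4 structural beta subunits, 0.81 for the 6 ATPases and 0.77 for the 14 non-ATPases.

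WT 0 Gy replicates 4 and 5 had the lowest levels. The mean level of the other core subunits was 5.43, 5.50, 5.40, 4.77 and 3.73 in WT 0 Gy and 6.03, 6.07, 5.38, 5.47 and 5.80 in WT 7 Gy. It was 5.83, 5.93, 5.37, 5.99 and 5.56 in Il10-/- 0 Gy and 5.66, 5.69, 5.28, 5.81 and 5.78 in Il10-/- 7 Gy. WT 7 Gy replicates 1 and 2 lay above all other arrays and WT 0 Gy replicates 4 and 5 below all others, and the other 16 overlapped across groups. Without WT 0 Gy replicate 5, the array with the fewest spots above background, the WT median was 0.58 and 30 of 34 were above 0, against a median of -0.15 over all genes.

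In Il10-/- mice the other core subunits stayed near all genes: 15 of 34 were above 0 after 7 Gy, with a median of -0.02, against 42.6% and a median of -0.11 over all genes. In the fit to all 10 Il10-/- arrays, scaled to the median and without a block, none of the 48 proteasome genes was called, where 8.42% of all genes were. Quantiles, a fit of all 4 groups, the block or 1 array left out called up to 2, as given below. An unadjusted p below 0.05 was found for 6 of the 48, as for 33.3% of all genes, all 6 with lower values after irradiation. With normexp as the background correction, 1 of 34 other core subunits was above 0 and their median was -0.24. At a false discovery rate of 5% alone, 3 proteasome genes passed (Psmd4, Psme3 and Psmf1), as did 19.8% of all genes. The other core subunits ran from -0.97 for Psmd4 to 0.43 for Psmd11. The difference between the genotypes' responses, tested as an interaction over all 20 arrays, was below 0 for all 34 other core subunits, with a median of -0.93 against -0.25 over all genes, of which 35% were above 0. No proteasome gene was called for it, nor was any of the 18739 genes (0%). An unadjusted p below 0.05 was found for 11 of the 48 members, all other core subunits with lower values, and for 1276 or 6.81% of all genes. Without WT 0 Gy replicate 5 that median was -0.61, with 1 of 34 above 0.

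At 0 Gy, Il10-/- minus WT was above 0 for all 34 other core subunits, with a median of 0.78, where 69.8% of all genes were above 0 and their median was 0.38. Scaling to the 75th percentile of each array in place of the median moved these to 0.43 and 0.03, and 33 of 34 stayed above the median of all genes in both. None was called, where 0.587% of all genes were, and 8 had an unadjusted p below 0.05, as had 15.1% of all genes. The largest value was 1.19 (SE 0.39, limma adjusted p = 0.231) for Psmd9, a chaperone of cap assembly. A second, dimmer probe of Psmd9, well above background on 16 arrays, read 0.34 (SE 0.50). The inducible genes differed by 0.33 to 0.96, and by 0.15 to 0.48 without WT 0 Gy replicate 5. For 1 member, Psmb7, all Il10-/- arrays were above all WT arrays, as for 3.68% of all genes, and for none were they below, as for 0.512%. Without WT 0 Gy replicate 5 the median of the other core subunits dropped to 0.47. Between the genotypes after 7 Gy, 0 proteasome genes were called, as was 0.00534% of all genes, and 0 of 48 had an unadjusted p below 0.05, as had 10.6% of all genes, with values from -0.37 for Psme3 to 0.46 for Psmf1. No member's groups were apart in that comparison, where 1.89% of all genes were apart in the higher and 0.704% in the lower direction. The medians there were -0.14 for the other core subunits and 0.09 for the inducible genes, and -0.80 and -0.74 with normexp.

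**Figure D4:**
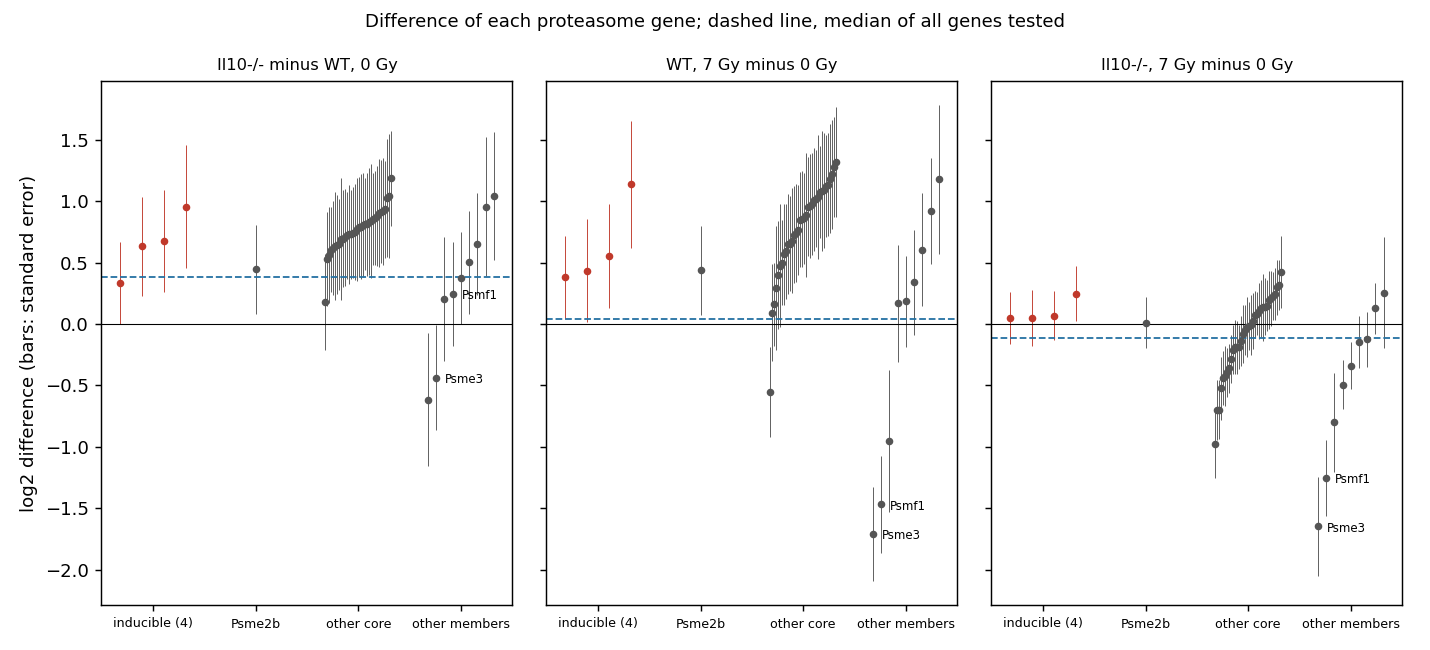
Log2 difference of each proteasome gene (points, bars show the standard error) for Il10-/- minus WT at 0 Gy, and for 7 Gy minus 0 Gy in each genotype, by class: the 4 inducible genes in red, Psme2b, the 34 other core subunits and the remaining members. The dashed line is the median of all 18739 genes (0.38, 0.04 and -0.11). Psme3 and Psmf1 are the lowest points with irradiation in both genotypes, and 33 of 34 other core subunits lie above the dashed line in the left and middle panels, against 20 in the right one.

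In the fits to all arrays of a comparison, scaled to the median and without a block, Psme3 was the one member that passed the threshold, in WT mice. Other scalings or a fit of all 4 groups also called Psmf1 or Psma6, as given below. Psme3 encodes PA28-gamma, a nuclear activator that binds the same barrel as Psme1. Its levels were 5.70, 6.17, 6.43, 7.31 and 6.32 in WT 0 Gy and 4.18, 4.34, 4.59, 5.08 and 5.21 in WT 7 Gy, with no overlap, and it fell by 1.71 on the log2 scale (SE 0.38, limma adjusted p = 0.0103). The Il10-/- arrays read 5.84, 6.14, 5.46, 5.15 and 7.17 with 0 Gy and 3.75, 3.93, 4.31, 4.13 and 5.40 with 7 Gy. That difference of -1.65 (SE 0.40, limma adjusted p = 0.0156) was not called, and the groups overlapped in 1 array. It was called with the slide, which is the replicate number, as a block (limma adjusted p = 0.00774), and without Il10-/- 0 Gy replicate 4 (-1.85, limma adjusted p = 0.0121) or Il10-/- 7 Gy replicate 5 (-1.92, limma adjusted p = 0.00640). It was lower after irradiation on 5 of 5 slides in both genotypes. The WT call was lost without WT 0 Gy replicate 3 or 4 or WT 7 Gy replicate 1, 2 or 3, with differences of -1.70 to -1.48 and limma adjusted p of 0.0225 to 0.0354. It was also lost when replicates 1 and 2 of each group, the closely matching arrays, were averaged and counted as 1 (-1.72, limma adjusted p = 0.0444). With normexp it was lost too (-0.49, limma adjusted p = 0.470), where 314 of all 18739 genes were called, against 1113 without normexp.

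The probe of Psme3 is made up in large part of alternating T and G, which fill 31 of its 60 bases. Of the other 48 members, 1 had any such run in its probe, of 10 bases. Among the 18739 genes tested, 25 others had at least 31 bases of T-G runs in their probe, among them Ephb3, Eya1, Ung and Pak4. After 7 Gy, all 25 were below 0 in both genotypes, with a median of -1.01 in WT mice and -1.25 in Il10-/- mice. In Il10-/- mice 25 of 25 were called lower, where 5.45% of all genes were, and in WT mice 0 of 25, where 2.01% were, and none was called higher, as 2.96% and 3.93% of all genes were in Il10-/- and WT mice. These counts depend on the scaling. In WT mice 3 were called lower with the 75th percentile and 19 with quantiles, where 667 and 636 of the 17881 genes without such a run were. In Il10-/- mice 24 were called lower with the reference array or quantiles, where 870 and 911 of the 17881 were. With normexp 0 of all 18739 genes were called in Il10-/- mice, so the 0 of these 25 with it says nothing about them. Their median with normexp was -0.18 in WT mice, with 23 of 25 below 0 and 0 called lower. In Il10-/- mice it was -1.38, with 25 of 25 below 0. No difference between the genotypes is read from these 25 probes. The 56 genes whose probes had 20 bases of such runs or more, but fewer than that of Psme3, had medians of -0.93 and -1.09, and the 17881 genes with none had medians of 0.05 and -0.10. With normexp the medians of the 56 were -0.02 in WT mice, with 32 below 0, and -1.03 in Il10-/- mice, with 55 below 0. Those of the 17881 were 0.20 and -0.12. The sets by T-G runs were chosen after the values of Psme3 were seen.

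The mean level of these 25 probes was 7.34, 7.31, 7.70, 8.32 and 7.23 in WT 0 Gy and 6.72, 6.70, 5.91, 6.60 and 6.65 in WT 7 Gy. It was 7.29, 7.45, 7.20, 7.17 and 7.80 in Il10-/- 0 Gy and 6.17, 5.86, 5.96, 6.32 and 6.56 in Il10-/- 7 Gy. No array of an irradiated group reached those of its sham group. The level of Psme3 minus this mean changed by -0.65 (SE 0.28) in WT mice and by -0.44 (SE 0.32) in Il10-/- mice, with overlapping groups. The part of the repeat in the change read for Psme3 was not tested beyond these values.

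Psmf1, whose product PI31 binds the barrel and inhibits it in vitro, had no such run in its probe. Its levels were 6.10, 6.64, 6.46, 7.46 and 5.48 in WT 0 Gy and 4.53, 4.89, 5.04, 5.34 and 5.00 in WT 7 Gy. In Il10-/- mice they were 6.91, 7.25, 5.92, 6.08 and 7.22 with 0 Gy and 5.29, 5.75, 4.89, 5.42 and 5.75 with 7 Gy. The groups did not overlap in either genotype, as for 3.55% of all genes in the lower direction in WT mice and 10.3% in Il10-/- mice. No member lay wholly higher after 7 Gy in Il10-/- mice, as 5.27% of all genes did. The differences of -1.47 (SE 0.39, limma adjusted p = 0.0244) and -1.25 (SE 0.31, limma adjusted p = 0.0163) missed the p threshold of 0.001. In WT mice the gene was called with the 75th percentile, the reference array or quantiles as the scaling, and without WT 0 Gy replicate 5 (-1.71, limma adjusted p = 0.00465). The Il10-/- difference was called with the slide as a block (limma adjusted p = 0.0101), and without Il10-/- 0 Gy replicate 3 (-1.44, limma adjusted p = 0.00878) or replicate 4 (-1.40, limma adjusted p = 0.0130).

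Psmd4, the ubiquitin receptor of the cap, had the next lowest value in Il10-/- mice. It read 10.45, 10.48, 9.61, 9.65 and 10.61 with 0 Gy and 8.96, 8.81, 8.88, 9.78 and 9.51 with 7 Gy, a difference of -0.97 (SE 0.28, limma adjusted p = 0.0323) that was not called. In WT mice it read 9.88, 9.88, 9.99, 10.94 and 9.21 with 0 Gy and 9.22, 9.17, 9.42, 9.73 and 9.58 with 7 Gy, a difference of -0.56 (SE 0.37). The groups overlapped in both. Psmf1 and Psmd4 were highest on the same arrays in the sham groups, WT replicate 4 and Il10-/- replicates 1, 2 and 5.

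Markers of red cells moved beside these genes. Of 9 measured transcripts of the erythroid list, 4 were called lower and 1 higher in WT mice, where 2.01% and 3.93% of all genes were, and 5 lower in Il10-/- mice, where 5.45% were. The mean level of the 9 was 5.93, 6.09, 6.05, 7.47 and 5.49 in WT 0 Gy and 4.67, 4.67, 5.17, 5.70 and 4.96 in WT 7 Gy. It was 7.07, 7.23, 5.93, 5.78 and 7.40 in Il10-/- 0 Gy and 4.80, 4.81, 4.86, 5.42 and 5.87 in Il10-/- 7 Gy. The highest sham arrays were again WT replicate 4 and Il10-/- replicates 1, 2 and 5. B cell markers fell too, with 8 of 9 called lower in both genotypes, beside the same shares. These sham arrays did not single out red cells. Platelet markers were also highest on WT replicate 4 (8.90) and Il10-/- replicates 1, 2 and 5 (10.42, 10.59 and 10.09), as was the mean of the T-G rich probes. In Il10-/- 0 Gy, but not in WT 0 Gy, neutrophil markers were highest on those replicates (8.38, 8.44 and 8.82). Hepatocyte transcripts were lowest there (2.89, 2.76 and 2.66, against 9.09 and 10.37). The part of any of these in the values of Psmf1, Psmd4 and Psme3 was not tested.

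**Figure D5:**
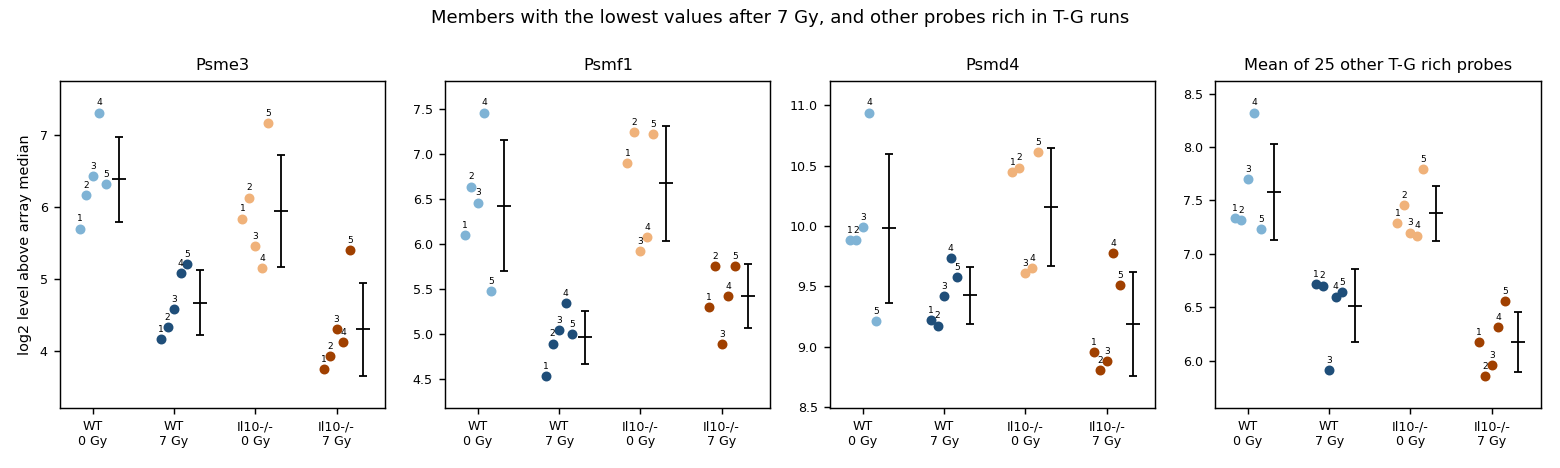
Level (log2 above the array median, vertical axes cut to each panel's range) of Psme3, Psmf1 and Psmd4, and the mean level of 25 other genes whose probes are as rich in T-G runs as that of Psme3, with 1 point per array numbered by replicate, and the mean ± SD of 5 arrays as a bar. Psmf1 and the 25 probes show no overlap between 0 and 7 Gy in either genotype, Psme3 none in WT mice, and Psmd4 overlaps in both.

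The remaining members were activator, chaperone and tissue-restricted genes. Psme4, the activator PA200, differed by 0.17 in WT and -0.80 in Il10-/- mice, and the 4 assembly chaperones Psmg1 to Psmg4 by 0.18 to 1.18 in WT and -0.50 to 0.13 in Il10-/- mice, with none called. The testis-restricted Psma8 was not well above background on any array and did not pass the filter. Psmb11, the subunit of thymic epithelium, was well above background on 1 array. Psmc3ip, which is named after a partner protein and is not a subunit, was so on 7. All 20 arrays were well above background for 37 of the 49 genes, and no member's probe was saturated.

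Genes that work with the proteasome were measured from a list of ubiquitin genes, shuttles and cofactors. Of 26 measured, 1 was called lower in WT mice (2.01% of all genes) and 4 in Il10-/- mice (5.45%), and none was called higher (3.93% and 2.96%). Ube3c and Usp14, a ubiquitin ligase and a deubiquitinase of the cap, fell in Il10-/- mice by 1.13 (SE 0.22) and 1.08 (SE 0.22), and Rps27a, a ubiquitin fusion gene, by 0.86 (SE 0.18). The medians of the list were 0.07 in WT and -0.21 in Il10-/- mice, near those of all genes.

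Downstream of the proteasome, 12 genes that load peptides on MHC class I were measured and none was called, where 5.94% of all genes were in WT and 8.42% in Il10-/- mice. In WT mice 12 of 12 were at or above 0 after 7 Gy, with a median of 1.04, and 9 of 12 in Il10-/- mice, with a median of 0.25. The mean level of the 12 was 5.59, 5.79, 5.67, 4.625 and 3.75 in WT 0 Gy (replicates 1 to 5) and 5.83 to 6.37 in WT 7 Gy. It was 5.72 to 6.18 in Il10-/- 0 Gy and 5.95 to 6.45 in Il10-/- 7 Gy. WT 0 Gy replicates 4 and 5 were thus lowest here as well, and the WT differences of this list rest in part on them. B2m, the light chain of class I, differed by 1.37 (SE 0.39, limma adjusted p = 0.0308) and 1.00 (SE 0.25, limma adjusted p = 0.0180). Pdia3, a chaperone of the loading complex, differed by 1.85 (SE 0.53, limma adjusted p = 0.0350) in WT mice. Of 6 transcription factors of interferon-gamma signaling, 4 were above 0 in WT and 3 in Il10-/- mice. Their medians were 0.16 and 0.01, and their highest values 1.28 and 0.94, with none called higher. Irf8, a factor of myeloid and B cells, was the 1 called lower, where 2.01% and 5.45% of all genes were. It fell by 1.78 (SE 0.37, limma adjusted p = 0.00713) in WT and by 2.02 (SE 0.24, limma adjusted p = 3e-04) in Il10-/- mice. Irf1, which drives the inducible genes, differed by 0.17 and -0.22 and was not called.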

How the data were processed

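Agilent single-colour arrays of blood RNA were scanned and extracted by the authors, and the deposited files hold the background-subtracted intensity of each spot (Feature Extraction 12.0.2.2 per the file headers, 10.7 per the labels). The authors' processed table holds deposited log2 values, which equal the log2 intensities of the same spots minus 1 constant per array. It lists 25 of the 49 proteasome genes and served as an alternative.

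Log2 intensities were taken with outlier spots left out, spots of 1 probe were averaged, and the median of 39429 probes was subtracted per array. Probes marked on at least 25% of the arrays were removed, and each gene kept its brightest probe (12 members had several, and no other probe was called). The authors' 1.5-fold variation filter, which 22 members pass, was an alternative. Limma 3.58.1 in R 4.3.3 was fitted to the 10 arrays of a comparison, and to all 20 for the interaction, and was tested on simulated data. The number of arrays limits the precision.

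Accessions of all 49 genes matched RefSeq (names only), and the chosen probes of 2, Psma4 and Psma5, are placed on another chromosome than their gene. The chosen probes of 9 others have no position in the array files. Replicate number and slide coincide. Same-numbered arrays of 2 groups did not deviate together in every pair (mean r from -0.05 to 0.42), so the block is an alternative. The methods describe 5 blood samples a group, drawn mouse by mouse, and the labels do not name the animal behind an array. P-values measure the spread between these samples, which may in part be technical. Named members and lists follow a written rule (inducible genes, counterparts, called members, the rest by role), chosen with earlier results of these data known. Marker lists for T cells, mature neutrophils, monocytes, NK cells and platelets are given with the other observations. Results of some genes on these lists are not reported here.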

Additional observations from a re-analysis of the deposited data

Results flagged for a closer look

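Of 84 groups of 5 arrays examined for 1 array far from the rest, 5 were flagged, and chance flags about 1 in 20. Psmc1 in Il10-/- 0 Gy was 7.62 on replicate 4, against 6.76 to 6.95 on the others. The within-array difference of the inducible genes from the other core subunits in Il10-/- 0 Gy was 1.67 on replicate 3, against 1.39 to 1.42, and with Psme2b included it was 1.96 against 1.67 to 1.71. The mean of the other core subunits in Il10-/- 7 Gy was 5.28 on replicate 3, against 5.66 to 5.81. The mean of the inducible genes in WT 7 Gy was 7.58 on replicate 5, against 7.02 to 7.14.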

How the results depend on the processing

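Proteasome genes called in the WT response numbered 1. They were 2 (Psme3 and Psmf1) with the 75th percentile, the reference array or quantiles as the scaling, with a false discovery rate of 5% alone and in the authors' table, 3 with all 4 groups in 1 fit (Psma6 added), and 0 with normexp, which adds 50 to intensities (Psme3 at -0.49). They were also 0 with replicates 1 and 2 averaged, chosen after seeing the data (Psme3 at -1.72). Leaving out 1 array gave 0 to 2, with 2 without WT 0 Gy replicate 5. In the Il10-/- response the 0 became 1 with quantiles (Psmf1) and in the fit of all 4 groups (Psme3), 3 at a false discovery rate of 5% (Psmd4, Psme3 and Psmf1) and 0 to 2 without 1 array (above 0 without Il10-/- 0 Gy replicate 3 or 4 or Il10-/- 7 Gy replicate 5). With the replicate block it was 2, Psme3 (limma adjusted p = 0.00774) and Psmf1 (0.0101), and the block changed no other count. Counts for genotypes and the interaction stayed 0 throughout. Of all 18739 genes, normexp called 314 in the WT response and 0 in the Il10-/- response, against 1113 and 1577 without it. With normexp the difference of inducible from other core subunits became 0.058 at baseline, 0.17 in the WT response and -0.022 for the interaction, and Psmb8, Psmb9, Psmb10 and Psme1 turned to -0.21, -0.25, -0.028 and -0.22 in the Il10-/- response; the cause was not tested. At baseline Psme1 turned to -0.016 with the 75th percentile and -0.12 with quantiles. Without 1 array the Il10-/- responses of Psmb8 ran from -0.065 to 0.16, of Psmb9 from -0.071 to 0.15 and of Psme1 from -0.035 to 0.15. The authors' table holds no inducible gene, so it gave no such difference, and with no background filter Psma8 entered without a call.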

Other observations

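Other blood cell lists had these values. Of all genes, 0.587% were called higher in Il10-/- than in WT mice at 0 Gy. After 7 Gy, 3.93% were called higher and 2.01% lower in WT mice, and 2.96% and 5.45% in Il10-/- mice. Counts of 0 or 1 on such short lists are not read as departures from these shares. Of 9 measured transcripts of mature neutrophils, 5 were called higher in Il10-/- than in WT mice at 0 Gy (median 1.90), and 0 were called with 7 Gy in either genotype. Of 10 T cell transcripts, 1 was called lower after 7 Gy in both genotypes (medians -0.45 and -0.62). Of 9 monocyte transcripts, 2 were called higher and 1 lower in WT mice and 2 lower in Il10-/- mice. None of 7 NK cell transcripts and none of 7 platelet transcripts was called, the latter with medians of 1.28 and 1.21. Hepatocyte transcripts were called higher for 7 of 9 in WT mice and heart muscle transcripts for 4 of 6 in Il10-/- mice after 7 Gy.

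Probes with A-C runs, which read the strand opposite to T-G runs, went the other way. The 6 genes whose probes had at least 31 bases of such runs were above 0 after 7 Gy in both genotypes, with medians of 0.63 in WT and 0.99 in Il10-/- mice, and 0 and 2 of them were called higher, where 3.93% and 2.96% of all genes were. In Il10-/- mice that count was 3 with the 75th percentile and 6 with the reference array or quantiles. Of the 17881 genes without a T-G run, 581, 905 and 674 were called higher with these scalings in the same order. With normexp it was 0, as for all 18739 genes.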
